A study of Homo sapiens with 6 samples.

Results

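A set of 8 long noncoding RNAs, most of them known for work in the nucleus, was followed in OVCAR8, a long-used line of human ovarian carcinoma cells, with and without relaxin-2 (RLN2), a peptide hormone of the insulin superfamily. The genes, 8 of 58037 gene IDs, were MALAT1, NEAT1, KCNQ1OT1, MEG3, TUG1, OIP5-AS1, LINC-PINT and NORAD. They were selected on earlier results of the same counts in the same untreated against relaxin-2 contrast. Of these, 6 stand in the symbol column of the merged count table, and TUG1 and OIP5-AS1 were found by gene ID in the tables of the single libraries. All cells were kept without serum for 16 h. They then stayed untreated (3 libraries, numbered 2 to 4) or received 50 ng/mL of recombinant human relaxin-2 for 8 h (3 libraries, numbered 1 to 3). Total RNA was sequenced, and the labels do not say whether each library came from its own culture. The p-values thus set the difference between groups against the spread between these libraries, and that spread may be only technical.

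Long noncoding RNAs act as RNA rather than through a protein. Some are scaffolds of nuclear bodies, some silence genes next to their own site of transcription, and some carry many binding sites for one protein or microRNA. MALAT1 collects in nuclear speckles, where splicing factors are stored, and NEAT1 is the scaffold of paraspeckles. KCNQ1OT1 and MEG3 come from imprinted domains, in which the maternal and paternal copies are used differently. NORAD binds Pumilio proteins and, like OIP5-AS1, is known mostly as a cytoplasmic RNA. The name "nuclear" therefore does not hold for every gene on the list, and no library here separated nucleus from cytoplasm.

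The sequences below show how these RNAs differ in the way they end and in what they bind. MALAT1 and the long isoform of NEAT1 have no poly(A) tail. A tRNA-like RNA is cut from the 3′ end of each of these transcripts, and the end left behind is held by a triple helix that includes an A-rich run. Both 3′ ends are on the plus strand of chromosome 11 (GRCh38, transcripts of GENCODE 29), at chr11:65506027-65506173 for MALAT1 and chr11:65445451-65445598 for NEAT1. Capitals mark the tRNA-like RNA, which has 57 bases for MALAT1 and 58 for NEAT1.
MALAT1 3′ end: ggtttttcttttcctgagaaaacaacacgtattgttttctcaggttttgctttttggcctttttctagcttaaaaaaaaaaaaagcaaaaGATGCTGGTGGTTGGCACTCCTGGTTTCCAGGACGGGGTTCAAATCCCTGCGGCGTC
NEAT1 3′ end: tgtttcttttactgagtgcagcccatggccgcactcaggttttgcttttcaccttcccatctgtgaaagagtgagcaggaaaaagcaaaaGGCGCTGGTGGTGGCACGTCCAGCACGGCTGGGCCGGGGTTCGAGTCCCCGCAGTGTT
The run AAAAAGCAAAA, 11 bases long, ends both stretches in lower case, directly before the tRNA-like RNA. Aligned with each other, the tRNA-like RNAs were identical at 40 of 59 columns (67.8%).

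NORAD carries repeated copies of the Pumilio recognition element, which was searched as TGTANATA on the transcript strand. Its single transcript of 5339 bases held 15 matches, or 2.81 per 1000 bases. Among 86337 GENCODE 29 transcripts of at least 1000 bases, 20.4% held at least 1 match, and 6 transcripts, NORAD among them, held as many as 15. The longest transcripts of the other members held 0 (MALAT1, LINC-PINT), 1 (OIP5-AS1), 2 (TUG1), 6 (NEAT1) and 9 (KCNQ1OT1) matches, and the last of these is 91667 bases long. The first, the eighth and the last match in NORAD, at bases 761, 2466 and 4599 of the transcript, are shown on the transcript (minus) strand with the match in capitals, at chr20:36050182-36050211, chr20:36048477-36048506 and chr20:36046344-36046373.
NORAD match 1: tggaaggcctgTGTATATAatatgaaaaag
NORAD match 8: gaataacacttTGTAAATAgcttttaaaaa
NORAD match 15: attagcctattTGTAAATAcctttgttata
A match describes the letters and is not a measured binding site.

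OIP5-AS1 is known for a single, nearly complete site for miR-7, while a second gene ID named LINC-PINT in GENCODE 29 hosts miR-29a and miR-29b-1. The mature microRNAs come from the RefSeq table of GRCh38 and have their seed (bases 2 to 8) in capitals. The stretch of OIP5-AS1 is at chr15:41300569-41300598 on the plus strand, with the letters that pair with the seed in capitals.
hsa-miR-7-5p: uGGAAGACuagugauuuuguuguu
OIP5-AS1 site: ttaagaacaacaaaatcaccaatGTCTTCC
hsa-miR-29a-3p: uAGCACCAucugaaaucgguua
hsa-miR-29b-3p: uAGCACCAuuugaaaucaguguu
The OIP5-AS1 transcript of 8829 bases held 3 matches to the miR-7 seed, and beside the one shown a run of 14 bases was complementary to the rest of the microRNA. Both microRNAs of the miR-29 family share their seed. The libraries were not made to measure mature microRNAs, and no microRNA level is reported.

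Reads assigned to genes ran from 11939148 in relaxin-2 replicate 2 to 22426768 in untreated replicate 3. Of the 6 libraries, 2 stood apart. Relaxin-2 replicate 2 had 27.0% multimapping reads and 5.37% of its gene reads on mitochondrial genes, and untreated replicate 2 had the smallest shares of histone (0.198%) and small structural RNA reads (0.263%). Reads outside annotated exons of the counted strand numbered 54.3, 62.5 and 54.4 per 100 gene reads in untreated replicates 2, 3 and 4, and 47.8, 46.1 and 45.2 in relaxin-2 replicates 1, 2 and 3. The groups did not overlap in this measure, and its part in the results below was not tested. Of the defining markers of the line, the 6 carcinoma genes summed to 1487 to 2533 CPM (counts scaled to 1000000 gene reads, with TMM factors) in untreated and 2332 to 2828 CPM in relaxin-2 libraries, although MUC16 had 4 reads in all. Leukocyte markers summed to at most 0.231 CPM with CD3E at 0 reads, endothelial markers to at most 3.14 CPM, and fibroblast markers to at most 19.1 CPM with DCN at 0 reads. Mesothelial markers summed to 11.4 to 32.6 CPM in untreated and 33.1 to 47.6 CPM in relaxin-2 libraries. Most of this sum was MSLN, with 8.55, 25.4 and 28.9 CPM in untreated and 28.8, 43.5 and 40.4 CPM in relaxin-2 libraries, and its groups overlapped. LRRN4 was higher without overlap, at up to 3.64 CPM, and CALB2 overlapped. Carcinoma cells of this kind can express mesothelial genes as well, and the part of these genes in the results was not tested.

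Of the 8 genes, 7 had reads and passed the filter on low counts, and MEG3 had 0 reads in every library. Levels were compared between genes as RPKM, which is the TMM-scaled CPM divided by kilobases of annotated exon. The lengths are those of GENCODE 29, and the annotation used for counting may differ. MALAT1 stood first with a mean of 1033.5 RPKM (range over 6 libraries 853 to 1207.5). NORAD followed with 115 RPKM (107 to 134), NEAT1 with 28.6 (22.6 to 39.2), TUG1 with 15.9 (14.97 to 17.4), OIP5-AS1 with 15.7 (14.7 to 17.6), LINC-PINT with 5.67 (4.77 to 8.08) and KCNQ1OT1 with 2.90 (2.69 to 3.25). The ranges of neighbours in this order did not overlap, except that TUG1 and OIP5-AS1 could not be ordered. Without division by length, MALAT1 had the second-highest mean CPM of 32407 gene IDs with reads. Among 7323 long noncoding RNA gene IDs with reads, MALAT1, NEAT1 and NORAD ranked 1 to 3 by mean CPM, KCNQ1OT1 ranked 9, OIP5-AS1 12, TUG1 13 and LINC-PINT 44. KCNQ1OT1 is thus far down the order per length but not by reads, because its annotated transcript is 91667 bases long.

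**Figure D1:**
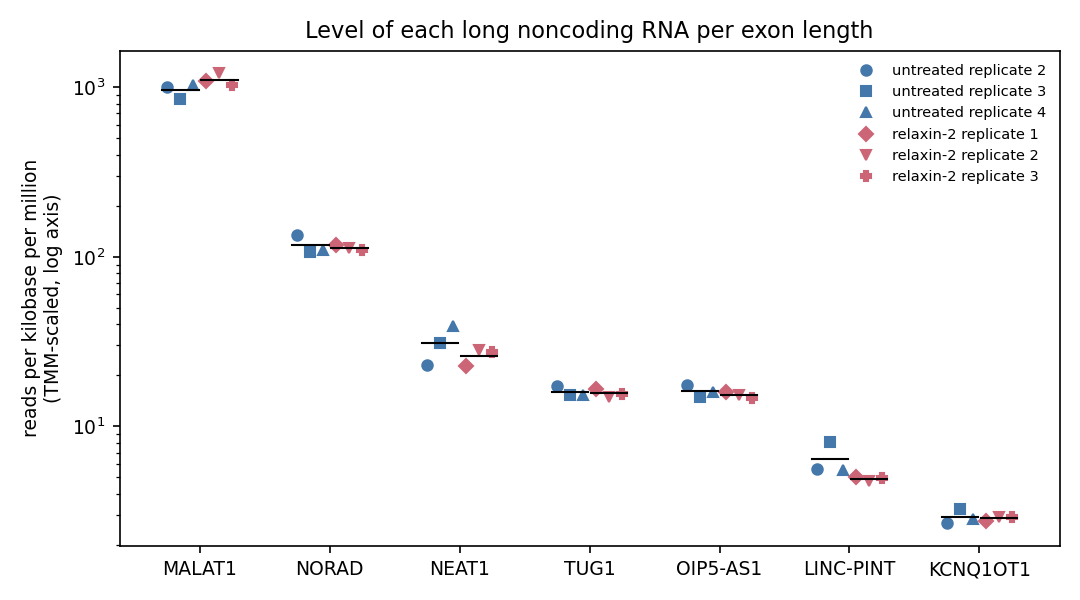
Level of each of the 7 detected long noncoding RNAs in each library, as TMM-scaled RPKM on a log axis. Blue symbols are the 3 untreated and red symbols the 3 relaxin-2 libraries, and black bars are group means. MALAT1 sits near 1033.5 and KCNQ1OT1 near 2.90, and TUG1 and OIP5-AS1 share a range.

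None of the 7 tested genes passed an adjusted p of 0.05 between relaxin-2 and untreated cells in edgeR's quasi-likelihood test, against 0% of all 16740 genes. DESeq2 and limma-voom also called 0 of the 7. At an unadjusted p under 0.05, 1 of the 7 (LINC-PINT) would count, beside 1811 of all genes (10.8%), of which those lower after relaxin-2 were 4.52% of all genes tested. Because the list was proposed with this contrast known, its values here are a description. Fitted changes were below 0 for 6 of 7 members, with a median log2 fold change of -0.04. They were below 0 for 52.2% of all genes (median -0.01) and for 60.9% of 2091 tested long noncoding RNA genes (median -0.08). The groups did not overlap for 2 of the 7, which were MALAT1 (higher) and LINC-PINT (lower), and over all genes they did not overlap for 21.4% (10.8% higher and 10.5% lower). With 7 genes, these counts are no result about the list. In bulk RNA, fewer cells that express a gene and less RNA per cell cannot be told apart.

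**Figure D2:**
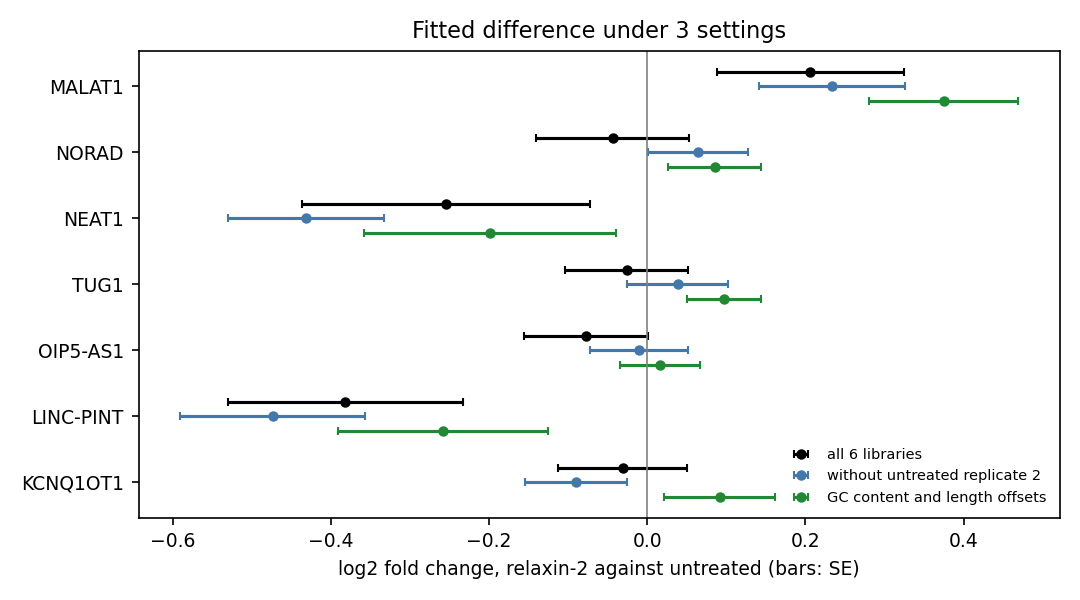
Log2 fold change, relaxin-2 against untreated, of the 7 detected genes under 3 settings, with bars for the standard error. LINC-PINT and NEAT1 lie left of 0 and MALAT1 right of 0 in all 3, whereas TUG1, OIP5-AS1, NORAD and KCNQ1OT1 lie near 0 and move across it between settings.

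MALAT1 (ENSG00000251562, chromosome 11, 65497688 to 65506516, plus strand), the speckle RNA, took most of the reads of the list. It had 195360, 171550 and 157770 reads in untreated replicates 2, 3 and 4, which is 8794, 7528 and 9096.5 CPM. Relaxin-2 replicates 1, 2 and 3 had 171961, 122368 and 200160 reads, or 9569, 10661 and 9098.5 CPM. All relaxin-2 values lay above all untreated ones, but the nearest pair, untreated replicate 4 and relaxin-2 replicate 3, lay within 2 CPM of each other, and as plain shares of gene reads (0.919% and 0.913%) that pair lay the other way round. The means were 8473 ± 832 CPM and 9776 ± 801 CPM (SD, n = 3 each), with a log2 fold change of 0.21 ± 0.12 (SE, edgeR adjusted p = 0.414). The fitted value was 0.13 without untreated replicate 3, the lowest library, and 0.37 ± 0.09 (SE, adjusted p = 0.398) with offsets for GC content and length. MALAT1 alone gave 79.0% to 84.9% of the members' reads. The other members summed to 1934, 1995.5 and 2146 CPM in untreated and 1808, 1902 and 1867 CPM in relaxin-2 libraries. This sum was lower in each relaxin-2 library than in each untreated one, with 1902 and 1934 CPM as the nearest values. NEAT1 and NORAD, its largest parts, each overlapped between groups. Over all genes, 10.5% were lower without overlap, so the sum is no result about the list.

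Reads on the MALAT1 strand were sparse near its annotated 5′ end. An unnamed noncoding feature on the opposite strand, AP000769.2 (65498010 to 65498405), covers bases 322 to 717 from the annotated gene start, and reads over it from the MALAT1 strand appear in the forward column of the tables. There were 136 such reads in all 6 libraries, or 0.0133% of MALAT1 reads on 4.49% of its exon bases. Between 15 and 27 reads came from each library, and their share of MALAT1 reads overlapped between groups (0.0140% ± 0.0016 and 0.0131% ± 0.0042, SD, n = 3 each, exact two-sided permutation p = 0.9). The interval lies between a pair of MALAT1 start sites in the RefSeq promoter table, at 65497738 and 65499045, which are 1307 bases apart. The promoter of the downstream start, chr11:65498795-65499094 on the plus strand of GRCh38, is shown with its first 50 transcribed bases in capitals. Which start these cells used was not tested.
MALAT1 downstream promoter: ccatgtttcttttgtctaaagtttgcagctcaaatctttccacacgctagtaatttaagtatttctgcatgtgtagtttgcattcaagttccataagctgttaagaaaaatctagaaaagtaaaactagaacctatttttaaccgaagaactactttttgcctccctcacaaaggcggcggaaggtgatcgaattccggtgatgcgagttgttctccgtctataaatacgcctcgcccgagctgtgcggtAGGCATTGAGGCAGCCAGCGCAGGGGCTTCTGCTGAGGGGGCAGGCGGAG
Reads that also fall on another opposite-strand gene of the authors' annotation would be missing from this interval. Counting without strand loses 19.99% to 21.8% of MALAT1 reads to such overlaps, 213115 in all, and the 136 reads over AP000769.2 do not account for them.

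NEAT1 (ENSG00000245532, chromosome 11, 65422774 to 65445540, plus strand), the paraspeckle scaffold and neighbour of MALAT1, varied most between libraries of one group. It had 525, 709 and 893 CPM in untreated replicates 2, 3 and 4, and 514, 644 and 624 CPM in relaxin-2 replicates 1, 2 and 3. The relaxin-2 values lay within the untreated range except for replicate 1, which was just below it. Means were 709 ± 184 and 594 ± 70.0 CPM (SD, n = 3 each), with a log2 fold change of -0.25 ± 0.18 (SE, edgeR adjusted p = 0.466). Single libraries moved this value, which was -0.05 without untreated replicate 4 and -0.43 without untreated replicate 2. Leaving out relaxin-2 replicate 1 gave -0.16. The short and long isoforms of NEAT1 share their 5′ part and were not separated by these gene counts.

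Proteins that work with these RNAs were looked at as lists, none of which had a member past the threshold. Of 14 paraspeckle proteins, 7 had fitted changes above 0 and 7 below (median 0.01), and SFPQ and NONO, the core pair that coats NEAT1, had log2 fold changes of -0.10 ± 0.08 and 0.05 ± 0.07 (SE). The smallest p-values belonged to MATR3 (-0.42 ± 0.11), an RNA-binding nuclear matrix protein, and HNRNPH3 (0.45 ± 0.16), a splicing regulator. MATR3 is uncertain, since GENCODE 29 lists overlapping gene IDs under that name and reads over both are dropped. Among 12 nuclear speckle proteins, 7 had values above 0 and 5 below (median 0.03), led by the splicing factor kinase CLK1 (-0.22 ± 0.08) and the 3′ splice site factor U2AF2 (0.59 ± 0.25). The list of MALAT1 3′ end processing and triple helix binding, mainly RNase P subunits, had 6 of its 12 genes on each side of 0 (median -0.03). METTL16, which binds the MALAT1 triple helix, had 73.6, 72.2 and 75.9 CPM in untreated and 80.4, 83.8 and 80.0 CPM in relaxin-2 libraries (0.14 ± 0.07), with no overlap between groups. ELAC2, the RNase Z that makes the other cut of the tRNA-like RNA, had a value of 0.17 ± 0.10. The tRNA-like RNA of MALAT1 has its own gene ID with 0 reads, because reads over both features are ambiguous in this way of counting. Of 15 genes of nuclear RNA decay, 5 had values above 0 and 10 below (median -0.13). The exosome subunit EXOSC9 (-0.25 ± 0.09) and ZC3H18 (0.56 ± 0.20), which links the cap-binding complex to the exosome, had the smallest p-values. As for METTL16, groups did not overlap for MATR3, HNRNPH3, CLK1, U2AF2, ELAC2, EXOSC9 and ZC3H18. These were picked for the smallest p of their lists, so their lack of overlap is no separate result. In the whole lists, groups did not overlap for 2 lower and 2 higher of the 14 paraspeckle proteins. The counts were 2 and 2 of the 12 speckle proteins, 0 and 2 of the 12 MALAT1 end genes, and 4 and 1 of the 15 decay genes. Over all genes tested, groups did not overlap for 21.4% (10.5% lower and 10.8% higher).

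NORAD (ENSG00000260032, chromosome 20, 36045622 to 36050960, minus strand), the Pumilio-binding RNA shown above with its repeated sites, had 714, 572 and 585 CPM in untreated and 625, 602 and 587 CPM in relaxin-2 libraries. Untreated replicate 2 was the highest, and the other 5 libraries lay close together. Means were 623 ± 78.3 and 605 ± 18.8 CPM (SD, n = 3 each), and the log2 fold change of -0.04 ± 0.10 (SE, edgeR adjusted p = 0.808) turned to 0.06 without untreated replicate 2. PUM2, a Pumilio protein, had a log2 fold change of -0.01 ± 0.07 (SE). Of 8 protein partners, 4 had values above 0 and 4 below (median 0.02), and the smallest p-values belonged to the splicing factor PRPF19 (0.43 ± 0.16) and the export adaptor ALYREF (0.40 ± 0.25), whose groups overlapped.

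TUG1 (ENSG00000253352, chromosome 22, 30969245 to 30979395, plus strand), transcribed away from MORC2 at a shared promoter, had 176, 155 and 156 CPM in untreated and 169, 152 and 158 CPM in relaxin-2 libraries. Means were 162 ± 12.2 and 160 ± 8.58 CPM (SD, n = 3 each), and the log2 fold change was -0.03 ± 0.08 (SE, edgeR adjusted p = 0.864). MORC2, a chromatin ATPase, had a value of 0.16 ± 0.11 (SE) with overlapping groups. Reads were not even along TUG1. Bases that face the opposite-strand feature AC004542.2 held 17.9% of TUG1 reads on 5.38% of its exon bases, and those facing AC004542.1 held 10.5% on 2.60%. Both features lie between 7270 and 9603 bases from the gene start, in the 3′ part of TUG1. The share over AC004542.2 was 19.4%, 18.3% and 17.6% in untreated and 16.9%, 16.6% and 17.4% in relaxin-2 libraries. The groups did not overlap, with an exact two-sided permutation p of 0.1, the smallest that 3 against 3 libraries allow (adjusted p = 0.225 over 9 intervals in 4 members). A short interval also counts reads that only touch it, so shares of reads exceed shares of bases by an amount that depends on read length, which is not given in the sources used here.

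OIP5-AS1 (ENSG00000247556, chromosome 15, 41283990 to 41309737, plus strand), the RNA with the miR-7 site, had 223, 189 and 201 CPM in untreated and 202, 193 and 186 CPM in relaxin-2 libraries, and the groups overlapped. Means were 204 ± 17.2 and 194 ± 7.78 CPM (SD, n = 3 each), with a log2 fold change of -0.08 ± 0.08 (SE, edgeR adjusted p = 0.586). OIP5, the kinetochore gene that meets its 3′ end on the other strand, had a value of -0.09 ± 0.16 (SE).

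LINC-PINT (ENSG00000231721, chromosome 7, 130938963 to 131110176, minus strand), a p53-responsive RNA in other cells, had the most negative fold change of the 7 genes. Untreated replicates 2, 3 and 4 had 1124, 1663 and 869 reads, or 50.6, 73.0 and 50.1 CPM, and relaxin-2 replicates 1, 2 and 3 had 815, 494 and 989 reads, or 45.4, 43.0 and 45.0 CPM. Every relaxin-2 library lay below every untreated one, and untreated replicate 3 stood well above the rest. Means were 57.9 ± 13.1 and 44.4 ± 1.24 CPM (SD, n = 3 each), with a log2 fold change of -0.38 ± 0.15 (SE, edgeR adjusted p = 0.408). Without untreated replicate 3 the fitted value was -0.18, and with offsets for GC content and length it was -0.26 (adjusted p from 0.136 to 0.766 over all alternatives).

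Counts of the same strand at and beyond the 3′ end of LINC-PINT, held under other gene IDs, also separated the groups. The second gene ID that GENCODE 29 names LINC-PINT (ENSG00000226380, 130876809 to 130913310, minus strand) spans the mature miR-29b shown above, at 130877467 to 130877489. The mature miR-29a, at 130876748 to 130876769, lies just beyond its 3′ end. This gene ID carries the names of both miR-29 genes in the merged table. It had 86.6, 103 and 85.0 CPM in untreated and 70.2, 68.8 and 69.0 CPM in relaxin-2 libraries. Means were 91.6 ± 10.1 and 69.4 ± 0.754 CPM (SD, n = 3 each), with a log2 fold change of -0.40 ± 0.09 (SE, edgeR adjusted p = 0.408). Leaving out untreated replicate 3 gave -0.31. The strand of LINC-PINT opposite AC058791.1 (130936464 to 130939661), a feature that reaches from the 3′ end of LINC-PINT into the gap before the second gene ID, had 42.0, 51.9 and 41.6 CPM in untreated and 32.2, 34.9 and 35.1 CPM in relaxin-2 libraries. In GENCODE 29 this feature faces 699 exon bases of LINC-PINT (7.74%). Counting without strand lost 0 LINC-PINT reads in each library, so no read counted for LINC-PINT was also counted here. The exons counted for LINC-PINT may thus differ from those of GENCODE 29, on whose length its 5.67 RPKM rests. With the length of the longest transcript it had 14.6 RPKM and kept rank 6. The 3 LINC-PINT measures shared their highest library, untreated replicate 3, and none overlapped between groups. They come from the same libraries and the same stretch of chromosome, so they are not independent. Over all genes tested, 10.5% were lower without overlap, and among tested long noncoding RNA genes 12.3% were. Reads outside exons per 100 gene reads were also highest in untreated replicate 3 and did not overlap between groups, and their part in the values of LINC-PINT was not tested. MKLN1, which starts next to LINC-PINT on the other strand, had 254, 230 and 195 CPM in untreated and 206, 184 and 190 CPM in relaxin-2 libraries (log2 fold change -0.23 ± 0.10, SE), with overlapping groups.

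**Figure D3:**
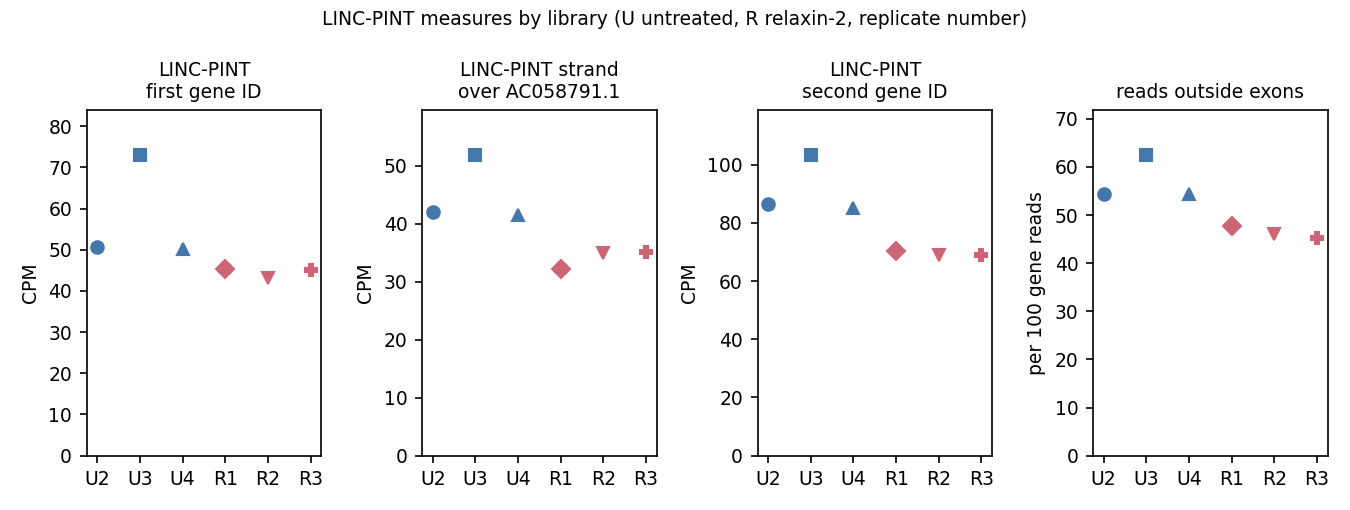
LINC-PINT, the reads of its strand opposite AC058791.1, the second LINC-PINT gene ID (CPM) and reads outside exons (per 100 gene reads) in each library, with axes from 0. U marks untreated and R relaxin-2 libraries with their replicate numbers. In each panel the 3 untreated libraries lie above the 3 relaxin-2 libraries and untreated replicate 3 is the highest.

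KCNQ1OT1 (ENSG00000269821, chromosome 11, 2608328 to 2699994, minus strand) runs antisense within KCNQ1 and silences neighbouring genes on the paternal copy. It had 246, 298 and 261 CPM in untreated and 254, 267 and 267 CPM in relaxin-2 libraries. Means were 268 ± 26.6 and 263 ± 7.84 CPM (SD, n = 3 each), with overlapping groups and a log2 fold change of -0.03 ± 0.08 (SE, edgeR adjusted p = 0.843). Untreated replicate 3 was again the highest library. Its host KCNQ1, a potassium channel gene, had 7 sense reads in all 6 libraries, against 30279 for KCNQ1OT1.

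Small annotated features on the plus strand gave the density of KCNQ1OT1 reads at known distances from its annotated start. Over 1918 to 2143 bases from the start there were 685 reads in all libraries, or 303 per 100 bases. Over 25254 to 25369 bases there were 132 (114 per 100 bases), over 25702 to 25897 bases 58 (29.6 per 100 bases), and over 47432 to 47895 bases 68 (14.7 per 100 bases). The whole gene had 33.0 reads per 100 bases. Density was highest near the start and lowest at the farthest interval, and adjoining intervals at about 25 kb differed as well. In that order of distance the intervals are 226, 116, 196 and 464 bases long. Reads that only touch an interval are counted too, which raises the density of short intervals most, also against the whole gene. The part of this in the densities was not tested. The interval near the start had 8.15, 6.41 and 5.71 CPM in untreated and 5.40, 3.75 and 5.41 CPM in relaxin-2 libraries. That at about 47 kb had 0.360, 0.483 and 0.461 CPM in untreated and 0.890, 0.784 and 0.727 CPM in relaxin-2 libraries. The nearest interval was therefore lower, and the farthest higher, in every relaxin-2 library than in every untreated one. As shares of KCNQ1OT1 reads, the nearest interval held 2.55% ± 0.66 and 1.85% ± 0.39, and the farthest 0.162% ± 0.015 and 0.306% ± 0.041 (untreated and relaxin-2, SD, n = 3 each). Each had an exact two-sided permutation p of 0.1, the smallest possible, and an adjusted p of 0.225 over the 9 intervals. The farthest interval rests on 27 untreated and 41 relaxin-2 reads, and the intervals at about 25 kb overlapped between groups. Of the 4447 exon bases of KCNQ1, 121 face KCNQ1OT1 exon, and the rest lie outside it. These exons faced 45 reads of the KCNQ1OT1 strand (1, 11 and 6 in untreated, 10, 5 and 12 in relaxin-2 libraries). Set against KCNQ1OT1 reads, they gave 0.104% ± 0.076 and 0.196% ± 0.029, which are not shares of its own reads. The groups did not overlap (nearest values 0.162% and 0.163%, exact two-sided permutation p = 0.1, adjusted p = 0.225), but as CPM they did. KCNQ1 was kept among the 9 intervals, whereas AC058791.1 and MKLN1, which also reach beyond their member, were left out. With TUG1 opposite AC004542.2, 4 of the 9 intervals thus had the smallest possible p of 0.1. That lies above the threshold before any adjustment, so no interval could have passed and the test cannot decide whether shares differed. By CPM, groups did not overlap for 21.4% of all genes tested. The KCNQ1OT1 intervals share their denominator, and the comparisons were added after values had been seen, so the count is a description.

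**Figure D4:**
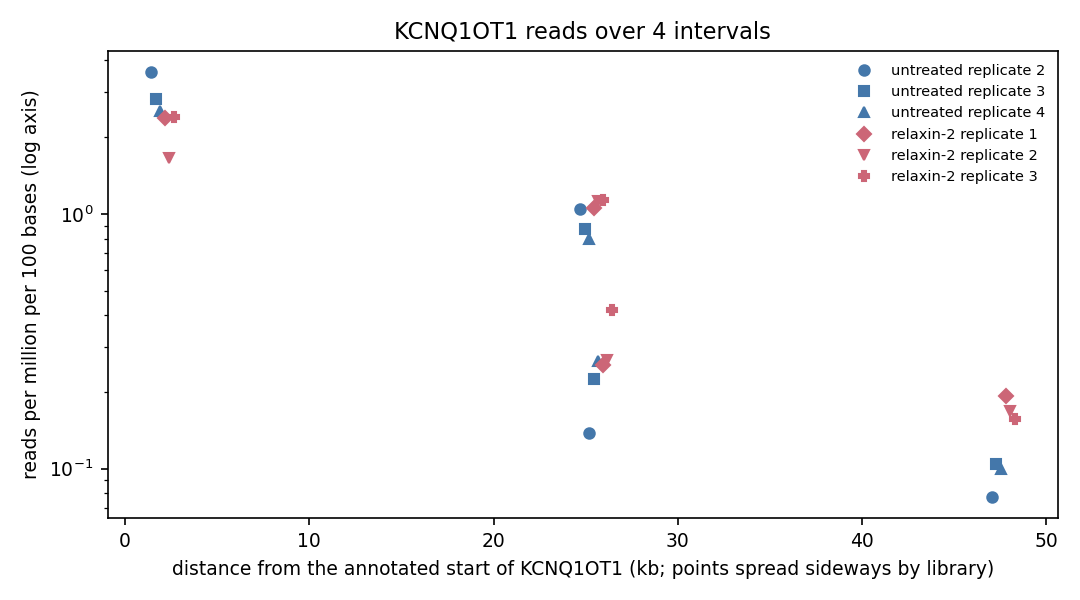
KCNQ1OT1-strand CPM per 100 bases (log axis) over 4 intervals, against distance from the annotated start in kb, with points spread sideways by library. Blue symbols are untreated and red symbols relaxin-2 libraries. Density is highest near the start (303 reads per 100 bases in all libraries) and lowest at about 47 kb (14.7), and the groups separate in opposite directions at these ends. The intervals differ in length, and reads that only touch one are counted.

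Imprinted genes around KCNQ1OT1 and MEG3 were mostly low or silent. Of 13 such genes, 8 had reads and 6 were tested, of which 5 had fitted values above 0 and 1 below (median 0.47), with none past the threshold. CDKN1C, the cell cycle inhibitor that KCNQ1OT1 is known to silence, had 244 reads in all and a log2 fold change of 0.34 ± 0.25 (SE). PHLDA2, a growth-restraining gene of the same domain, had 0.42 ± 0.23, and CD81, a tetraspanin at its edge, 0.52 ± 0.27. The groups overlapped for all 3. MEG3 (ENSG00000214548, chromosome 14, 100779410 to 100861031, plus strand), a growth-restraining RNA often silenced in tumours, had 0 reads in all 6 libraries in the unstranded, forward and reverse columns. Zero among 113628275 gene reads allows a level of up to 0.0264 CPM (3 counts, counting error only). Its imprinted neighbours DLK1, RTL1, MEG9 and DIO3 also had 0 reads, and MEG8 had 2. No comparison of treatments was possible there. Among 12 neighbours of the other members, 8 had fitted values above 0 and 4 below (median 0.34), and 4 were higher and 0 lower without overlap between groups. Over all genes tested the median was -0.01, and 10.8% were higher without overlap. Of these neighbours, EPB41L1, next to NORAD (0.35 ± 0.12), and EHBP1L1, near MALAT1 (0.40 ± 0.15), had the smallest p-values. Both encode cytoskeleton-linked proteins, and neither passed the threshold.

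Reads in the forward column, which lie on the strand opposite to each gene, were not used to choose the list. They made up 4.80% to 5.33% of forward and reverse reads over all genes. OIP5-AS1 was close to that, with 4.75% to 5.88% (1310 forward reads), and it is the member whose 3′ end faces a protein-coding gene. All other members were lower, at 0.188% to 0.457% for MALAT1, 0.0655% to 0.184% for NEAT1, 0.440% to 1.01% for KCNQ1OT1, 0% to 0.286% for TUG1, 0.180% to 0.912% for LINC-PINT and 0.185% to 0.420% for NORAD. The forward share overlapped between groups for all 7 members. For KCNQ1OT1 it was 0.830% ± 0.168 in untreated and 0.538% ± 0.157 in relaxin-2 libraries (SD, n = 3 each, exact two-sided permutation p = 0.2, adjusted p = 1 over 7 members). The exact p-values of the others ran from 0.4 to 1, and 3 against 3 libraries cannot give less than 0.1.

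The protein-coding genes whose pattern over the 6 libraries was most like that of each of the 3 most abundant members were found by the root mean square difference of centred log2 CPM, among 5891 genes. For MALAT1 the nearest were CCN1 (0.0257) and RAB7A (0.0340), against a median of 0.209 over all genes compared. For NORAD they were SERPINB7 (0.0109), HSPH1 (0.0147) and KIAA1143 (0.0156), against a median of 0.106. NEAT1 had no close match, as its nearest genes KLC1 (0.139), H1-3 (0.157) and WDR27 (0.168) stood nearer to its median of 0.313. With 6 libraries and 5891 genes compared, these are descriptions.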

How the data were processed

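A stranded total RNA kit was used, per the labels. The authors deposited raw read counts for each gene in 3 columns (unstranded, forward, reverse), from STAR on hg38 per the submitters' processing notes. Which STAR version and annotation they used is not given in the sources used here. All 24635 gene IDs shared with the authors' merged count table equalled the reverse column, which was used. Names and exon lengths came from GENCODE 29 (57433 of 58037 IDs matched).

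From these counts, genes were filtered by edgeR's default, scaled by TMM and compared with the edgeR 4.0.16 quasi-likelihood test (limma 3.58.1, R 4.3.3), two-sided, Benjamini-Hochberg adjusted p under 0.05, treatment as the only term. CPM uses TMM-scaled library sizes. Lines that name no gene were left out (outside exons 17.5% to 32.0% of reads). STAR counting drops multimapping and overlapping reads. Forward shares and intervals were tested by exact permutation over 20 assignments. DESeq2 1.42.0, limma-voom and other scalings, filters and library subsets were alternatives. Each library differed from the others by more than sampling noise. The 2 genes with the smallest p of each protein or neighbour list were named, and others were chosen after their values were seen. A gene that the rule for similar patterns names is not reported here. Members and lists were chosen with earlier results of these data known, and the interval comparisons were added after values had been seen. Sequences came from GENCODE 29 transcripts and RefSeq tables.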

Additional observations from a re-analysis of the deposited data

How the results depend on the processing

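No member passed the threshold under any of 20 alternatives (smallest adjusted p 0.0860, for NEAT1 without both libraries numbered 2). Of 138 recomputed fold changes of members, 126 kept their sign. Those that reversed, none past the threshold, are given as log2 fold changes, and the cause was not tested. Offsets for GC content and length gave KCNQ1OT1 0.092, TUG1 0.097, OIP5-AS1 0.016 and NORAD 0.085 (the members' transcripts with reads hold 40% to 46.9% GC, against a median of 48.7% over tested genes). Unstranded counts gave TUG1 0.0068. Leaving out both libraries numbered 2 gave TUG1 0.079 and NORAD 0.075. Leaving out each library in turn gave TUG1 -0.074 to 0.039, NORAD -0.10 to 0.064 and KCNQ1OT1 -0.090 to 0.050. MALAT1 stayed above 0 (0.13 to 0.37) and LINC-PINT below 0 (-0.47 to -0.18) in every alternative.

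Over all genes, 0 passed in the main test, 120 without the filter on low counts, 3 without both libraries numbered 2 and 0 to 3 when leaving out each library. Only numbers 2 and 3 occur in both groups. Deviations from the group means correlated at -0.54 for number 2 and 0.55 for number 3 over 5993 genes. Libraries of different number gave correlations from -0.837 to 0.835, so these values cannot decide whether the numbers pair the samples. With the replicate block 1 gene passed and NEAT1 was 0.056. Differences in the forward share (relaxin-2 minus untreated, percentage points) changed sign for 5 of 7 members when each library was left out, with -0.0026 to 0.110 for MALAT1, -0.039 to 0.020 for NEAT1, -0.048 to 0.095 for TUG1, -0.15 to 0.42 for OIP5-AS1, -0.014 to 0.352 for LINC-PINT and -0.034 to 0.075 for all members together. With forward reads scaled to CPM of all forward gene reads, the sign differed from that of the share for NEAT1 (-3.24) and OIP5-AS1 (-15.2), and it was the same for MALAT1 (161.7), KCNQ1OT1 (-16.7), TUG1 (0.964), LINC-PINT (0.219), NORAD (-10.5) and all members together (117). With the length of the longest transcript, 5 of 7 members kept their rank per length, and TUG1 and OIP5-AS1 changed places. The merged table tests 5 members, without TUG1 and OIP5-AS1. Depth limits the intervals, the thinnest of those with reads being KCNQ1OT1 opposite KCNQ1 with 45 reads in all libraries.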
